A study of Prunus persica with 16 samples.

Results

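Buds of hydrogen cyanamide (HC) treated peach trees were compared at 7 days and at 3 days after the spray. The comparison took all 8 libraries whose labels give HC treatment, 4 at 7 days and 4 at 3 days, out of the 16 libraries of the study; the other 8 are untreated controls of the same days, 4 at each time. The trees were 5-year-old TropicBeauty, a low-chill peach (Prunus persica) cultivar, grafted on Floridaguard rootstock and standing in 1 orchard. They had received 11 of the 150 chilling hours the cultivar requires when 4 of them were sprayed with HC at 1% (v/v), in a solution with a non-ionic surfactant at 0.15% (v/v); the 4 control trees received no HC. Since a surfactant is mentioned only with HC, the 2 cannot be told apart. The replicates were 4 trees per treatment, which means that each tree gave buds on both days if no other trees were used, although the labels do not say that 1 replicate number was 1 tree. Time since the spray cannot be told apart from the calendar day within the HC trees, and the control trees give the same days without HC. The labels call the tissue buds and do not say whether these were flower or leaf buds.

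Buds of temperate fruit trees pass the winter in endodormancy, a state in which the bud itself prevents growth until it has received enough cold. HC is a growth regulator that is sprayed on dormant trees to bring bud break forward, and it is known to disturb respiration and the removal of hydrogen peroxide in buds. The dormancy-associated MADS-box (DAM) genes of peach are a row of neighbouring transcription factor genes on chromosome 1; they are known as repressors of bud growth, and their loss in the evergrowing mutant leaves the tree without dormancy.

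All values are as deposited, in a unit inferred from the values as FPKM. FPKM is the number of sequenced fragments of a transcript scaled to its length and to the size of the library. The deposited matrix held 26873 gene identifiers. The 15204 that reached 1 FPKM in at least 4 of the 8 HC libraries were tested. Another 6663 identifiers were listed at 0 in all 8. No identifier is paired with a gene name in the files used here, so genes are given by identifier and their products are not described; the number before G is the chromosome and the number after it the order along it, as peach identifiers are built. A gene is called higher or lower where its Benjamini-Hochberg adjusted p from limma, over all tested genes, was under 0.05, and a log2 fold change is 7 days over 3 days on log2(FPKM + 1), with its standard error (SE). Because buds were sequenced whole, more cells of a type and more RNA per cell cannot be told apart. For the same reason, and with no named markers, the labelled tissue could not be checked against its defining genes.

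The libraries differed in depth more than in any other library value. The estimated number of reads in genes, in M (1e6 reads), was 16.7, 3.57, 2.59 and 3.39 in HC buds at 7 days, against 15.5, 6.34, 21.8 and 5.87 at 3 days. The ranges overlapped, and neither the reads (exact permutation test, two-sided, p = 0.2, or 0.457 adjusted over the 4 library values tested) nor the number of genes above 0 (15551 ± 2232 at 7 days against 15697 ± 2500 at 3 days, SD, n = 4 each; p = 0.943 by the same test) differed beyond the spread of the libraries; the smallest p that 4 against 4 allows is 0.0286. Replicate 3 of 7 days stood apart: 202 of 6808 genes at 10 FPKM or more in each of the other 3 libraries of its day were listed at 0 in it (2.97%), against 0 to 90 genes in the other 7 libraries. The correlation of log2(FPKM + 1) over the tested genes was 0.766 to 0.904 between libraries of 7 days, 0.791 to 0.948 between libraries of 3 days, and 0.667 to 0.860 between libraries of different days.

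Between 3 and 7 days after the spray, genes of the buds changed in both directions. Of the 15204 tested genes, 1820 were called (12%): 1040 were higher (6.84%) and 780 were lower (5.13%) at 7 days. The higher genes had a median log2 fold change of 2.10, with quartiles of 1.39 and 2.92, and the lower genes one of −1.58, with quartiles of −2.52 and −1.06. The median of all 15204 genes was 0.06, and both this median and the excess of higher genes depended on the scaling: with quantile normalization, 1020 genes were higher and 1019 lower, with a median of −0.05. Without replicate 1 of 7 days, 727 were higher and 662 lower, with a median of −0.01. A change of 4 log2 units or more was reached by 94 higher and 47 lower genes. The 4 libraries of the days did not overlap in 1003 of the higher and 730 of the lower genes, and over all tested genes the days did not overlap in 2970 (19.5%). With replicate 1 of 3 days left out, 1203 genes were called, and with all 16 libraries in 1 fit, 1080. Without replicate 3 of 7 days, the library with the most genes at 0, there were 1632 calls.

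**Figure D1:**
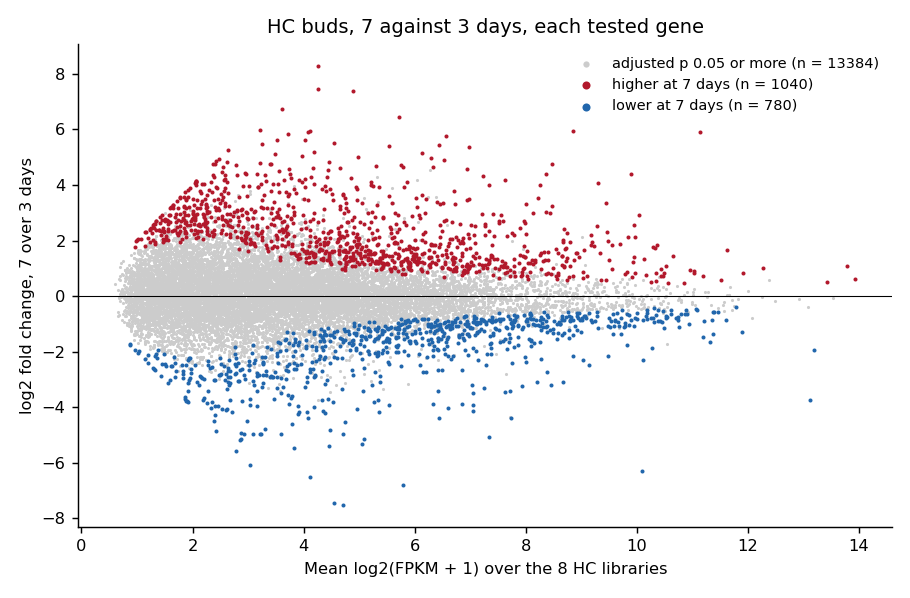
Log2 fold change (7 over 3 days) of each tested gene in HC buds, on the vertical axis, against its mean log2(FPKM + 1) over the 8 HC libraries, on the horizontal axis. Red points are the 1040 genes called higher at 7 days, blue points the 780 called lower, and grey points the genes not called; at high levels smaller changes were called.

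The share of genes called was larger in classes of higher level. Among genes with a mean FPKM under 2 it was 1.36%, and among the 1703 genes with a mean of 100 or more it was 37.2%, 298 higher and 335 lower. The median SE of the log2 fold change was 0.64 in the lowest of these classes, 0.72 among genes with a mean of 2 to 5 FPKM and 0.23 in the highest. Calls in both directions were nearly equal in number in the highest class, whereas among genes with a mean of 5 to 10 FPKM 127 were higher and 51 lower.

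The most abundant transcripts turned over as well. Of the 100 genes with the highest mean FPKM, 63 were the same on both days, and 37 belonged to each day alone. Of the 37 at 7 days alone, 30 were called higher, and of the 37 at 3 days alone, 29 were called lower. Both sets were ranked on the same libraries, so the choice itself favours these directions. Over all tested genes, 6.84% were called higher and 5.13% lower. Among the 1703 genes with a mean FPKM of 100 or more, 37.2% were called in either direction. The higher genes together took 26.0% to 29.9% of a library's FPKM at 7 days, against 8.87% to 11.0% at 3 days; the lower genes took 11.0% to 12.6% at 7 days, against 28.9% to 30.2% at 3 days. These shares describe genes chosen on the same libraries and carry no test. The share of FPKM in each library's own 100 most abundant genes was 30.6% ± 1.84 at 7 days and 32.9% ± 2.63 at 3 days (SD, n = 4 each), and did not differ beyond the spread (exact permutation test, two-sided, p = 0.229, or 0.457 adjusted).

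The largest gain in level was that of Prupe.8G098600. It had 13707, 15350, 17601 and 24627 FPKM in HC buds at 7 days, against 93.2, 855, 348 and 259 FPKM at 3 days. Every library of 7 days was thus more than an order of magnitude above every library of 3 days, and the ratio of the mean FPKM was 45.9 (log2 fold change 5.89, SE 0.57, adjusted p = 0.000421). In control buds it also rose, with 10118 ± 2329 FPKM at 7 days and 745 ± 224 FPKM at 3 days (SD, n = 4 each; adjusted p = 3.08e-06). The next largest gain was that of Prupe.1G134900, an abundant transcript on both days. It had 16430, 23140, 24755 and 18111 FPKM in HC buds at 7 days, against 6447, 12504, 10871 and 10043 FPKM at 3 days, a ratio of the means of 2.07 (log2 fold change 1.07, SE 0.20, adjusted p = 0.00566). The days did not overlap, which was a condition for choosing the genes with the largest changes. Its call was lost in 1 of 20 alternatives, with neither trend nor robust settings in limma (adjusted p = 0.0779; 0.000261 to 0.0779 over all of them).

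The largest loss in level was that of Prupe.3G244700, which was also the gene with the lowest moderated t statistic. It had 2139, 2372, 2601 and 2737 FPKM in HC buds at 7 days, against 24132, 41316, 32647 and 35963 FPKM at 3 days. All libraries of 7 days lay close together and far below those of 3 days (log2 fold change −3.75, SE 0.15, adjusted p = 6.45e-07). Prupe.1G356400 had 5428, 3966, 4294 and 5648 FPKM in HC buds at 7 days, against 14246, 20057, 22081 and 18265 FPKM at 3 days. It fell as well, by a smaller factor (log2 fold change −1.95, SE 0.15, adjusted p = 4.97e-05). The days did not overlap in either gene, by the same condition. In control buds both fell too: Prupe.3G244700 averaged 4016 ± 425 FPKM at 7 days and 29026 ± 2563 FPKM at 3 days, and Prupe.1G356400 averaged 2853 ± 472 FPKM at 7 days and 14254 ± 2143 FPKM at 3 days (SD, n = 4 each).

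**Figure D2:**
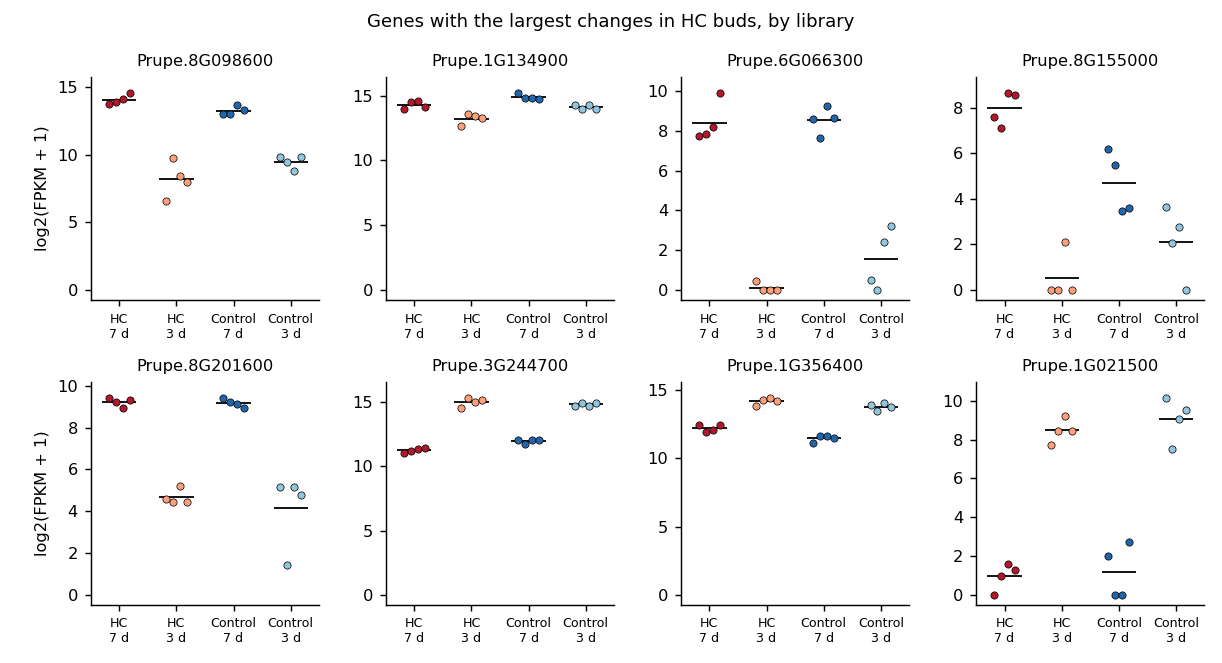
Log2(FPKM + 1) per library for 8 genes with the largest changes in HC buds; each point is a library, each bar the mean of its 4 libraries, and the groups run from HC at 7 and 3 days to control at 7 and 3 days. In all 8 genes the HC libraries of 7 days do not overlap those of 3 days, which was a condition for choosing them. The control means change in the same direction.

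The largest fold changes belonged to genes that were near 0 on one of the days. Prupe.6G066300 had 209, 224, 289 and 956 FPKM in HC buds at 7 days, against 0.38, 0, 0 and 0 FPKM at 3 days. It was thus detected in only 1 HC library of 3 days, and its log2 fold change of 8.29 (SE 0.48, adjusted p = 6.65e-06) depends on the pseudocount: it was 11.16 with a pseudocount of 0.1 and 6.07 with one of 5. In control buds Prupe.6G066300 had 381, 197, 603 and 400 FPKM at 7 days and 0.43, 0, 4.38 and 8.33 FPKM at 3 days. It was called higher there too (adjusted p = 0.0001), and its HC and control changes did not differ by the test (adjusted p = 0.713). Prupe.8G155000 had 193, 136, 400 and 380 FPKM in HC buds at 7 days, against 0, 0, 3.25 and 0 FPKM at 3 days. It rose in HC buds (log2 fold change 7.46, SE 0.56, adjusted p = 3.31e-05), by a value that was 10.03 with a pseudocount of 0.1 and 5.50 with one of 5. In control buds it had 70.8, 43.9, 10.1 and 11.2 FPKM at 7 days and 11.4, 3.14, 5.90 and 0 FPKM at 3 days, which overlap and did not pass the test (adjusted p = 0.208). The difference between its HC and control changes did not pass either (4.89 log2 units, SE 1.15, adjusted p = 0.065).

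Prupe.8G201600 had the highest moderated t statistic of the rising genes, followed by Prupe.6G066300. It had 689, 593, 498 and 640 FPKM in HC buds at 7 days, against 22.9, 20.6, 35.5 and 21.1 FPKM at 3 days. The libraries of each day lay close together (log2 fold change 4.57, SE 0.23, adjusted p = 2.2e-06). The control buds had nearly the same levels, 582 ± 74.3 FPKM at 7 days and 24.5 ± 15.7 FPKM at 3 days (SD, n = 4 each).

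Some genes were listed at 0 in every HC library of one day. The filter keeps such genes only where they are high on the other day, so their number is a description. Of the tested genes, 31 were above 0 in all 4 HC libraries of 7 days and at 0 in all 4 of 3 days, and 30 of them were called; their median mean level at 7 days was 12.1 FPKM and the highest 40.5 FPKM. In the other direction, 17 genes were above 0 in all 4 libraries of 3 days and at 0 in all 4 of 7 days, and all 17 were called; their median mean level at 3 days was 6.53 FPKM and the highest 71.5 FPKM. At the edge of the filter, 1050 genes reached 1 FPKM in exactly 4 of the 8 libraries. Of these, 120 were called, beside 1820 of all 15204 tested genes (12%). The 1050 include 108 genes that reached 1 FPKM in all 4 libraries of 7 days and none of 3 days; 86 were called. They also include 38 that reached it in all 4 of 3 days and none of 7 days; 32 were called. Nearly all calls at the edge thus came from genes that passed on 1 day alone, and the other edge genes were rarely called. Another 980 genes reached 1 FPKM in exactly 3 libraries and were not tested.

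Called genes were found beside each other along the chromosomes. Runs are consecutive identifiers called in the same direction. There were 59 runs of higher genes, with 122 genes, and 45 runs of lower genes, with 95 genes; 3 runs of each direction held 3 genes or more. Of the tested neighbours of higher genes, 9.53% were higher themselves, against 6.84% of all tested genes, and of the tested neighbours of lower genes, 9.92% were lower, against 5.13%. Neighbours called in the opposite direction made up 3.86% beside higher genes and 5.06% beside lower genes. Neighbouring genes are often copies of each other, and reads that fit several copies make the level of each uncertain; how the authors assigned them is not stated.

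The longest run was of 5 lower genes, Prupe.1G021400 to Prupe.1G021800 on chromosome 1, and it held the 2 most negative log2 fold changes among the genes without overlap between the days. Prupe.1G021500 had 0, 0.95, 2.00 and 1.44 FPKM in HC buds at 7 days, against 213, 352, 603 and 349 FPKM at 3 days (log2 fold change −7.52, SE 0.43, adjusted p = 6.25e-06). Prupe.1G021600 had 0, 0.55, 3.08 and 0.55 FPKM at 7 days, against 129, 465, 544 and 272 FPKM at 3 days (log2 fold change −7.44, SE 0.54, adjusted p = 2.57e-05). Both were close to absent in the 4 libraries of 7 days, with 0 to 4 estimated reads each, so their fold changes depend on the pseudocount: Prupe.1G021500 had −8.86 with a pseudocount of 0.1 and −5.89 with one of 5, and Prupe.1G021600 had −8.99 and −5.72. The call of Prupe.1G021600 was lost in 1 of 20 alternatives, the voom fit on estimated reads (adjusted p = 0.0625; 4.64e-06 to 0.0625 over all of them). Prupe.1G021400 was less variable, with 30.5, 30.6, 33.4 and 28.6 FPKM at 7 days, against 488, 521, 570 and 682 FPKM at 3 days (log2 fold change −4.15, SE 0.19, adjusted p = 1.27e-06). Prupe.1G021800 had 28.1, 89.6, 10.4 and 18.3 FPKM at 7 days, against 696, 982, 1189 and 952 FPKM at 3 days (log2 fold change −5.09, SE 0.52, adjusted p = 0.000199). Prupe.1G021700 was listed at 0 in all 4 libraries of 7 days, against 2.88, 11.2, 26.3 and 30.0 FPKM at 3 days (adjusted p = 0.00547). A run is made of genes called in the same direction, so its fall as a whole is no separate result. The days did not overlap in any of its 5 genes, as in 730 of the 780 lower genes. Its 5 genes were called lower at 7 days in control buds as well, with adjusted p-values between 2.91e-05 and 0.000471.

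The longest run of higher genes was of 4, Prupe.8G098600 to Prupe.8G098900 on chromosome 8, and began with the gene of the largest gain in level. Prupe.8G098700 had 287, 351, 446 and 273 FPKM in HC buds at 7 days, against 13.95, 76.8, 34.1 and 29.3 FPKM at 3 days (log2 fold change 3.32, SE 0.42, adjusted p = 0.000559). Prupe.8G098900 had 56.0, 97.3, 31.4 and 90.7 FPKM at 7 days, against 5.61, 10.7, 2.83 and 0 FPKM at 3 days (log2 fold change 3.94, SE 0.70, adjusted p = 0.00417; 4.93 with a pseudocount of 0.1 and 2.93 with one of 5). Prupe.8G098800 was the lowest of the run, with 7.78, 12.2, 1.21 and 28.3 FPKM at 7 days, against an FPKM of 0 in each of the 4 libraries of 3 days (adjusted p = 0.0175). Its call was lost in 2 of 20 alternatives, without replicate 1 of 3 days (adjusted p = 0.0508) and with only genes of a mean of 5 FPKM or more (adjusted p = 0.0507), over a range of 0.000788 to 0.0508. The levels within the run were far apart: at 7 days the first gene averaged 17821 FPKM, the second 339, the third 12.4 and the fourth 68.8. In control buds Prupe.8G098700 was called higher as well (adjusted p = 0.00116), while Prupe.8G098800 and Prupe.8G098900 did not pass the test (adjusted p = 0.125 and 0.514). In none of the 4 genes did the HC change differ from the control change by the test (adjusted p of 0.270 or higher).

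**Figure D3:**
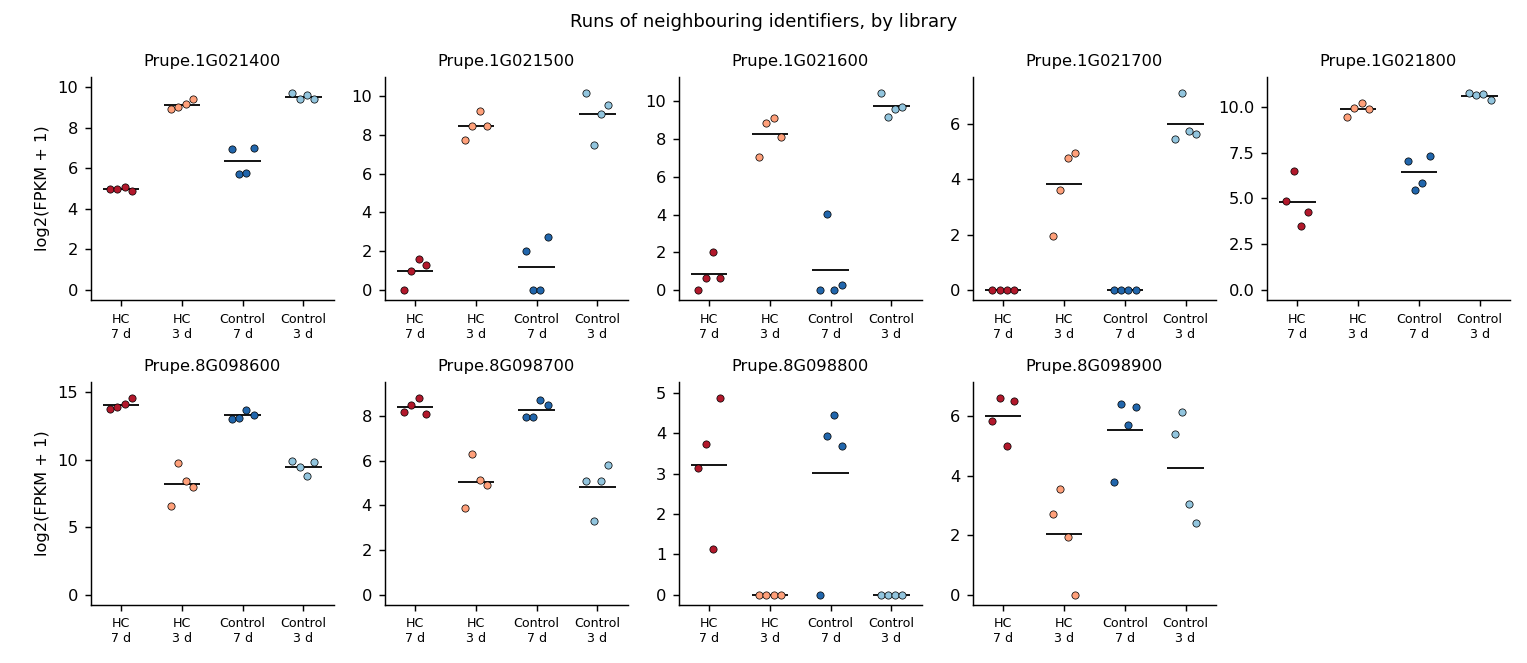
Log2(FPKM + 1) per library for the 5 genes of the longest falling run (top row) and the 4 genes of the longest rising run (bottom row); points are libraries and bars the means of 4 libraries, with HC at 7 and 3 days left of control at 7 and 3 days. In each of the 9 genes the HC libraries of the days do not overlap, as in 1003 of the 1040 higher and 730 of the 780 lower genes.

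A second rising run, Prupe.1G498700 to Prupe.1G498900, was of 3 abundant genes. Prupe.1G498700 averaged 2433 ± 749 FPKM in HC buds at 7 days and 734 ± 232 FPKM at 3 days (adjusted p = 0.00196). Prupe.1G498800 averaged 1132 ± 379 FPKM at 7 days and 346 ± 195 FPKM at 3 days (adjusted p = 0.0112). Prupe.1G498900 had 739, 1064, 586 and 939 FPKM at 7 days, against 31.5, 138, 104 and 96.5 FPKM at 3 days (log2 fold change 3.30, SE 0.40, adjusted p = 0.000465). None of the 3 passed the test in control buds (adjusted p = 0.423, 0.883 and 0.189 in the order of the run). The difference between the HC and control changes did not pass for Prupe.1G498700 (adjusted p = 0.417) or Prupe.1G498800 (adjusted p = 0.225). For Prupe.1G498900 the HC change was larger than the control change (2.66 log2 units, SE 0.49, adjusted p = 0.0184); control buds had 1007 ± 171 FPKM at 7 days and 665 ± 210 FPKM at 3 days, so the HC libraries of 3 days were the low ones. This difference was lost in 1 of 22 alternatives, without replicate 4 of HC at 7 days (adjusted p = 0.053; 0.00993 to 0.053 over all of them).

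A second falling run, Prupe.4G147000 to Prupe.4G147200, was weaker. In control buds the log2 fold changes of its 3 genes were 0.80, −0.88 and 0.30 in the order of the run, and none passed the test (adjusted p = 0.849, 0.758 and 0.742). The differences between their HC and control changes did not pass either (adjusted p = 0.529, 0.773 and 0.502). Prupe.4G147100 had 16.0, 7.79, 4.79 and 8.01 FPKM in HC buds at 7 days, against 40.9, 43.6, 37.9 and 56.6 FPKM at 3 days (log2 fold change −2.27, SE 0.38, adjusted p = 0.00333). Its call was lost in 1 of 20 alternatives, the fit of all 16 libraries (adjusted p = 0.149; 0.00111 to 0.149 over all of them). Prupe.4G147000 averaged 4.81 ± 5.62 FPKM at 7 days and 27.3 ± 13.1 FPKM at 3 days (adjusted p = 0.0398), and Prupe.4G147200 averaged 263 ± 30.6 FPKM at 7 days and 395 ± 53.7 FPKM at 3 days (adjusted p = 0.0494; SD, n = 4 each). The calls of these 2 genes were each lost in 13 of 20 alternatives. Among them was leaving out any one of replicates 2 and 3 of 7 days and replicates 1, 3 and 4 of 3 days for both genes, replicate 2 of 3 days for Prupe.4G147000 and replicates 1 and 4 of 7 days for Prupe.4G147200, with adjusted p-values of 0.0589 to 0.107 for Prupe.4G147000 and 0.0568 to 0.123 for Prupe.4G147200 without 1 library.

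The control trees give the course over the same days without HC. In control buds, 538 of the same 15204 genes were called between 7 and 3 days (3.54%), 278 higher and 260 lower. These libraries varied more: the median SD of log2(FPKM + 1) per gene was 0.67 and 0.60 in HC buds at 7 and 3 days and 0.90 and 1.05 in control buds at 7 and 3 days, and their estimated depth was 0.555 to 13.3 M reads, so the counts of the courses are not comparable as sizes of a response. Of the genes called higher in HC buds, 192 were also called higher in control buds (18.5% of the HC list, 69.1% of the control list), and 3 were called lower there. Of the genes called lower in HC buds, 153 were also called lower in control buds (19.6% of the HC list, 58.8% of the control list), and 1 was called higher. Past the threshold or not, 78.8% of the higher and 86.8% of the lower genes had the same sign of change in control buds, against 62.2% of all tested genes. The last share was not matched for level, and called genes were more often of high level. The median log2 fold changes of the higher and lower genes in control buds were 0.96 and −0.99. The levels followed the same order: the higher genes had a median of mean FPKM of 61.4 in HC buds at 7 days and 13.9 at 3 days, and of 49.3 in control buds at 7 days and 23.0 at 3 days. The lower genes had 35.0 in HC buds at 7 days and 109 at 3 days, and 31.4 in control buds at 7 days and 77.3 at 3 days. The lists were chosen on the HC libraries, so the size of their change there is no independent measure.

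Across the 15204 genes, the log2 fold changes of HC and control buds had a Pearson correlation of 0.40, and of 0.55 across the 5706 genes with a mean FPKM of 20 or more over all libraries. These are across genes, which are not independent replicates, and both courses come from 1 orchard on the same days, although they share no library.

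**Figure D4:**
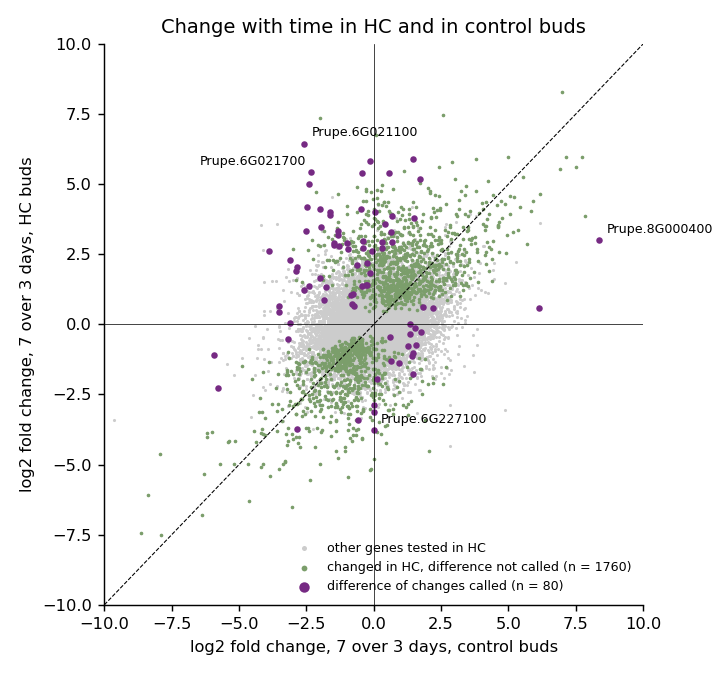
Log2 fold change (7 over 3 days) of each gene tested in HC buds, on the vertical axis, against that in control buds, on the horizontal axis; the dashed line marks equal changes. Green points are genes called in HC buds, and purple points genes whose HC and control changes differed by the test; 4 genes of the naming rule carry their identifiers.

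The test of the difference itself took 1 spread per gene over all 16 libraries, although control libraries varied more than HC libraries. Its SEs and p-values rest on that. It called 81 of 16596 genes (0.488%), 59 with the more positive change in HC buds and 22 with the more positive change in control buds. With median-of-ratios scaling the split was 45 and 32, and the median difference of all genes was −0.02 log2 units, where it is 0.10 as deposited. Of the 81 genes, 60 were also called in HC buds: 49 were higher and 11 lower at 7 days. In 37 of these 49 genes the control change had the opposite sign. Their median level was 208 FPKM in HC buds at 7 days and 21.0 at 3 days, and 57.2 in control buds at 7 days and 130 at 3 days. These genes were selected for a rise in HC buds that differed from the control change, which favours this order of the groups and opposite signs in control buds, so neither is a result. The 11 lower genes had a median of 65.0 FPKM in HC buds at 7 days and 236 at 3 days, and of 44.1 in control buds at 7 days and 69.6 at 3 days. The number called was between 34 and 107 with 1 library left out, and it was 34 to 53 without any one of replicates 1, 3 and 4 of HC at 7 days, replicates 1, 3 and 4 of HC at 3 days, replicates 3 and 4 of control at 7 days, and replicates 3 and 4 of control at 3 days.

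Among the 6 named genes with a difference of changes, Prupe.6G021700 was the one whose call held in all 22 alternatives. It had 483, 462, 552 and 838 FPKM in HC buds at 7 days and 6.44, 25.4, 20.6 and 6.21 FPKM at 3 days, against 5.94, 254, 47.3 and 116 FPKM in control buds at 7 days and 230, 440, 212 and 285 FPKM at 3 days. The HC libraries rose without overlap, which was a condition for choosing the gene. The control libraries of 7 days spread from near those of HC at 3 days to within the range of control at 3 days. The HC change exceeded the control change by 7.75 log2 units (SE 1.11, adjusted p = 0.00421). Prupe.6G021100, a near neighbour in the numbering, had 473, 388, 653 and 476 FPKM in HC buds at 7 days and 4.05, 25.3, 6.47 and 0 FPKM at 3 days, against 0, 306, 25.4 and 43.6 FPKM in control buds at 7 days and 120, 279, 117 and 117 FPKM at 3 days. Its HC libraries also rose without overlap, by the same condition. Control libraries of 7 days spread from 0 to above all those of 3 days (difference of changes 9.03, SE 1.82, adjusted p = 0.0411, with 10.83 at a pseudocount of 0.1 and 7.42 at one of 5). The control library at 0 was replicate 1 of 7 days, which had 0.555 M estimated reads. The difference of changes was lost in 14 of 22 alternatives. Of these, 13 leave out 1 library (adjusted p of 0.0608 to 0.108), and the other was the pseudocount of 0.1 (adjusted p = 0.191). The difference stayed called without replicate 2 of HC at 3 days and without replicates 1 or 2 of control at 7 days.

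Prupe.8G000400 was the opposite case, rising less in HC buds than in control buds. It had 189, 272, 192 and 177 FPKM in HC buds at 7 days and 13.2, 25.1, 22.3 and 50.8 FPKM at 3 days, against 1215, 356, 1174 and 632 FPKM in control buds at 7 days and 0, 0, 20.7 and 0.24 FPKM at 3 days. It rose in both (adjusted p = 0.000439 in HC buds and 0.000252 in control buds), and the difference of changes was −5.38 (SE 1.07, adjusted p = 0.028; −7.47 with a pseudocount of 0.1 and −3.84 with one of 5). The difference was lost in 13 of 22 alternatives, 11 of which leave out 1 library (adjusted p of 0.0536 to 0.0734). The others were the pseudocount of 0.1 and library quality weights, with adjusted p-values up to 0.133. The difference stayed called without replicate 2 of HC at 7 days, replicates 1 or 2 of HC at 3 days, replicate 2 of control at 7 days or replicate 3 of control at 3 days. Prupe.6G227100 was above 0 in a single group: every HC library of 7 days listed it at 0, against 13.6, 17.7, 5.78 and 17.4 FPKM in HC buds at 3 days, and so did the 8 control libraries. Its change in HC buds passed the test (adjusted p = 0.00154), as did the difference from control (adjusted p = 0.0109), and the second was lost in 1 of 22 alternatives, the replicate block (adjusted p = 0.0654; 0.00631 to 0.0654 over all of them).

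The DAM genes were looked up by 6 identifiers from general knowledge of the peach annotation, which the files do not annotate. Of these, 4 were measured and tested, and 2 of the 4 were called, both higher, beside 12% of all tested genes. The other 2, Prupe.1G531200 and Prupe.1G531300, had an FPKM of 0 in each of the 16 libraries. Near-identical neighbours can share reads, so the level of each is uncertain. Prupe.1G531100 had 104, 129, 120 and 81.4 FPKM in HC buds at 7 days, against 17.2, 17.4, 35.1 and 43.2 FPKM at 3 days. It rose without overlap between the days (log2 fold change 2.00, SE 0.34, adjusted p = 0.00342); control buds had 206 ± 86.6 FPKM at 7 days and 92.5 ± 11.9 FPKM at 3 days (SD, n = 4 each; adjusted p = 0.157).

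Prupe.1G531400 had 279, 399, 286 and 330 FPKM in HC buds at 7 days, against 132, 245, 203 and 186 FPKM at 3 days. The days did not overlap, and the change was close to the threshold (log2 fold change 0.77, SE 0.22, adjusted p = 0.0436). Its call was lost in 12 of 20 alternatives, among them leaving out any single HC library other than replicate 2 of 3 days (adjusted p of 0.0545 to 0.115). Prupe.1G531600 had 86.3, 261, 39.7 and 46.3 FPKM in HC buds at 7 days, against 147, 453, 314 and 305 FPKM at 3 days. Replicate 2 of 7 days lay within the range of 3 days, and the gene did not pass the test (log2 fold change −1.80, SE 0.55, adjusted p = 0.0575); without that library it did (adjusted p = 0.00582), and it passed in 4 of 20 alternatives, over a range of 0.00582 to 0.232. Prupe.1G531700 was the highest of the 4, with 626, 800, 679 and 690 FPKM in HC buds at 7 days, against 543, 765, 600 and 634 FPKM at 3 days. These overlap (log2 fold change 0.14, SE 0.15, adjusted p = 0.617). For none of the 4 did the HC change differ from the control change by the test (adjusted p of 0.588 or higher).

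**Figure D5:**
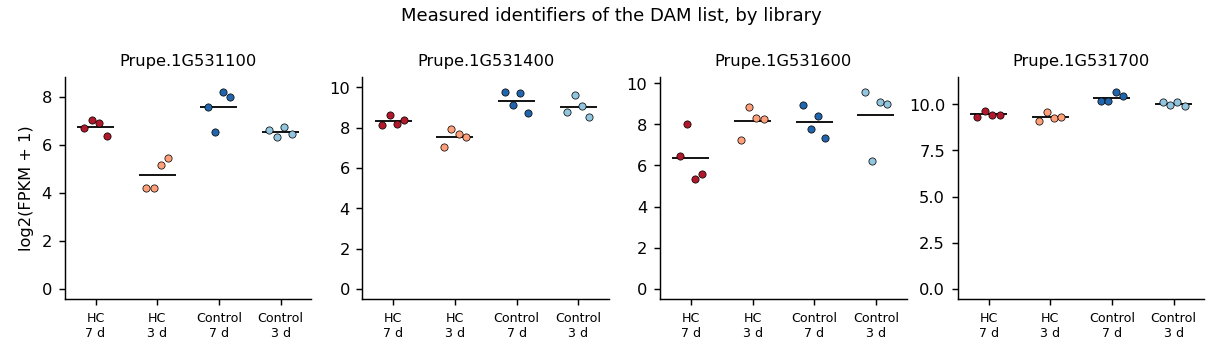
Log2(FPKM + 1) per library for the 4 measured identifiers of the DAM list; points are libraries and bars the means of 4 libraries, with HC at 7 and 3 days left of control at 7 and 3 days. Prupe.1G531100 and Prupe.1G531400 are higher at 7 days in HC buds without overlap, Prupe.1G531600 has 1 library of 7 days within the range of 3 days, and Prupe.1G531700 overlaps.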

How the data were processed

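Buds were profiled by mRNA sequencing, with TruSeq mRNA libraries from total RNA per the labels' protocols. Per the submitters' processing notes, the tools were RSEM 1.2.31, STAR 2.5.2a and Trimmomatic, with no role or order stated. The genome build is not given in the sources used here. For expression, the authors deposited 1 matrix of FPKM, a unit inferred from its values, and 2 tables with 1 signal value per gene and treatment, pooled over 4 libraries. The signal gave a length-like factor per gene for 20556 genes, with which low FPKM values fell on steps taken as 1 read; in each library 82.5% to 93.8% of low values lay within 0.2 of a whole number of steps (40% if spread evenly). This estimated depth served for description and for 1 alternative. The reference table of 26412 genes matched 0 of the identifiers.

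The test was limma 3.58.1 (R 4.3.3, statmod 1.5.0) on log2(FPKM + 1), with trend and robust empirical Bayes, fitted to the 8 HC libraries since control libraries varied more, for genes that reached 1 FPKM in at least 4 of 8. The control course was fitted likewise to the 8 control libraries on the same genes, and the difference of changes to all 16 libraries, for genes that reached it in at least 4 of 16. Fits treat libraries as independent. They were run on simulated data with known changes. The only outcome required there was the right direction for nearly all changes of 8-fold or more in the HC and control fits. No limit was set on false calls, and nothing was required of the difference of changes. Genes were named by rule: the 2 highest and 2 lowest by log2 fold change, by difference of mean FPKM, by moderated t statistic and by difference of changes, among genes called without overlap and with a mean FPKM of 1 or more (for the last, called in both contrasts), the 2 longest runs in each direction, and the DAM list. The members, lists and tests were chosen with earlier results of these data known. Alternatives changed the pseudocount, filter, scaling, model, replicate block and libraries. No sequence is given, since no table used here pairs these identifiers with one.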

Additional observations from a re-analysis of the deposited data

Results flagged for a closer look

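In 6 of 63 groups of 4 libraries tested, 1 library lay far from the other 3 by Dixon's gap criterion. Chance gives about 1 in 20 for normally distributed values; in 2 of the 6 groups the other 3 libraries were at 0, where the criterion is always met and that rate does not apply. Replicate 1 of HC at 7 days had 16.7 M (1e6) estimated reads, against 2.59 to 3.57 M in the other libraries of its group. Prupe.6G066300 had 956 FPKM in replicate 4 of HC at 7 days and 0.38 FPKM in replicate 1 of HC at 3 days, where the other 3 libraries were listed at 0. Prupe.8G000400 had 272 FPKM in replicate 2 of HC at 7 days. Prupe.8G155000 had 3.25 FPKM in replicate 3 of HC at 3 days, the only library of its group above 0, and Prupe.8G201600 had 35.5 FPKM in the same library.

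For 6 named genes the change with time differed between HC and control trees in the limma fit over all 16 libraries. The HC change was the more positive for Prupe.6G021100 (9.03 log2 units), Prupe.6G021700 (7.75) and Prupe.1G498900 (2.66). The HC change minus the control change was negative for Prupe.8G000400 (−5.38), which rose in both treatments, for Prupe.6G227100 (−3.76), which was at 0 in 3 of the 4 groups, so that the value depends on the pseudocount, and for Prupe.3G244700 (−0.89, adjusted p = 0.0387), which fell in both treatments. The difference of Prupe.3G244700 was lost in 15 of 22 alternatives, 13 of which leave out 1 library (adjusted p of 0.0576 to 0.0917 among these 13); it stayed called without replicate 1 of HC at 3 days and without replicate 2 of control at 7 or at 3 days.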

How the results depend on the processing

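Many named genes were chosen for large changes without overlap between the days, which leaves little room for a reversal. No named gene reversed its direction in any alternative run. The median log2 fold change over all tested genes did: in HC buds it was 0.06, against −0.05 with quantile normalization and −0.01 without replicate 1 of HC at 7 days. The 1820 genes called in HC buds became 1080 with all 16 libraries in the fit, 1212 with neither trend nor robust settings (65.2% of them higher), 2758 with library quality weights, and 1203 (without replicate 1 of HC at 3 days) to 1632 with 1 library left out; under the other alternatives they numbered 1409 to 2204. The 81 genes with a difference of changes became 41 with a pseudocount of 0.1, 125 with one of 5, 227 with quality weights, and 34 to 107 with 1 library left out. Median-of-ratios scaling gave 322 higher and 198 lower control calls, in place of 278 and 260. Of 33 named results called, 21 were called in every alternative. Deviations of same-numbered HC libraries from their group means correlated at 0.10, 0.01, −0.04 and −0.00, so the numbers were not taken to pair libraries; with a replicate block, 1441 genes were called in HC buds, 434 in control buds and 38 for the difference. Of genes with a mean FPKM under 2, 1.36% were called; the parts of depth and of the pseudocount in this were not tested.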

Other observations

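Called genes were spread over all 8 chromosomes, as the identifiers give them. On chromosome 6, 181 of 2115 tested genes were higher (8.56%) and 118 lower (5.58%) at 7 days in HC buds, which makes 14.1% called in either direction, against 10.66% to 12.05% on each of the other 7 chromosomes. Of the 81 genes whose HC and control changes differed, 21 lay on chromosome 6 (0.917% of its 2289 tested genes) and 20 on chromosome 1 (0.530% of 3774), where the share over all tested genes was 0.488%. This was noticed after the values were seen and was not tested.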
